A study of Mus musculus with 16 samples.

Results

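Whole livers of 2 mutant genotypes were compared, mice labelled TRAF2/Casp-8/IKKbetaLPC-KO (IKKβ triple KO, 4 arrays) and mice labelled TRAF2/Casp-8LPC-KO/RIPK3-/- (RIPK3 triple KO, 4 arrays). These 8 arrays were all arrays with the 2 genotype names, out of 16 in the series, and each array held the liver RNA of 1 male mouse aged 7 days on a mixed C57/BL6 and SV129Ola background. Both genotypes carry floxed Traf2 and floxed Casp8 removed by alfp-Cre, a transgene active in liver parenchymal cells (LPC), so loss of TRAF2 and caspase-8 in these cells is shared and is not what the comparison tests. In the IKKβ triple KO the same Cre also removes floxed Ikbkb, and Ripk3 is present. In the RIPK3 triple KO, Ripk3 is deleted in every cell of the body and Ikbkb is intact. The comparison therefore sets loss of IKKβ in parenchymal cells against loss of RIPK3 everywhere, and no array in it lacks both or neither. The other 8 arrays serve as reference levels: 4 of WT (littermates with floxed alleles and no Cre) and 4 of TRAF2/Casp8 KO (the same Cre deletion of Traf2 and Casp8, with Ripk3 and Ikbkb intact). Genotype names below stand for arrays as labelled.

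Downstream of TNF receptors, TRAF2 links the receptor complex to the kinases that activate NF-κB. Apoptosis from death receptors begins with caspase-8, which also holds back necroptosis, a lytic death in which RIPK3 phosphorylates MLKL. IKKβ phosphorylates the inhibitors that keep NF-κB dimers in the cytoplasm (the canonical pathway), and in hepatocytes NF-κB target genes include inflammatory chemokines and inhibitors of death. A parallel, non-canonical pathway runs through the kinases NIK and IKKα to the p52 and RelB subunits, and TRAF2 together with the cellular inhibitors of apoptosis is known to restrain it. The series title places the suppression of liver necroptosis by NF-κB and its bearing on cancer at the centre of the study.

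Values are log2 signals made by the authors with RMA, in which a difference of 1 is a 2-fold change, and every difference below is IKKβ triple KO minus RIPK3 triple KO unless another is named. Adjusted p-values are from limma's moderated test in 1 model of all 16 arrays, with Benjamini-Hochberg adjustment over 35556 probe sets and a threshold of 0.05, and a change is written as a rise or a fall only past it. Over the 8 arrays compared, array medians lay between 4.90 and 5.03. Correlations among these 8 lay between 0.984 and 0.990 within a genotype and between 0.980 and 0.986 across the 2 genotypes. IKKβ triple KO replicate 1 had the lowest limma array weight of the 8 arrays, 0.597. Per the array names, the IKKβ triple KO arrays were in rows E to H of plate column 5 and the RIPK3 triple KO arrays in rows A to D of column 7, so position and genotype cannot be told apart here. In whole liver, fewer cells of a type and less RNA per cell cannot be told apart either.

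Of 18820 genes, 118 rose (0.627%) and 259 fell (1.38%) in the IKKβ triple KO relative to the RIPK3 triple KO, together 377 (2.00%). A change of at least 2-fold was reached by 25 of the genes that rose and 58 of those that fell. On the level of probe sets, 179 were higher and 388 lower, 567 in all. Leaving out single arrays moved that total from 197 (without RIPK3 triple KO replicate 3) to 938 (without IKKβ triple KO replicate 1). Among the 84 named genes past the threshold, RIPK3 triple KO replicate 3 ended the most calls when left out (37) and IKKβ triple KO replicate 1 the fewest (5). The total also lay more than 1.5 times below the full count without IKKβ triple KO replicate 2 (260), replicate 3 (306) or replicate 4 (230), and without RIPK3 triple KO replicate 1 (370) or replicate 2 (295). The 4 values of one genotype lay wholly above or below the 4 of the other for 1696 genes (9.01%), and for 372 of the 377 genes that passed the test. The median difference over all genes was −0.008, and the median absolute difference 0.116.

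The 2 mutants differed from the reference genotypes in unequal numbers of genes past the threshold. Against TRAF2/Casp8 KO, 192 genes passed in the IKKβ triple KO and 62 in the RIPK3 triple KO. At an unadjusted limma p under 0.05 the probe sets against TRAF2/Casp8 KO numbered 3265 and 3570, in the opposite order. Single-array omissions were not run for these counts. Against WT fewer genes passed in the IKKβ triple KO than in the RIPK3 triple KO. There, at an unadjusted limma p under 0.05, the probe sets numbered 2230 and 5056. Against WT, 7 genes (0.0372%) passed in the IKKβ triple KO and 585 (3.11%) in the RIPK3 triple KO; the 2 counts share the WT arrays, and the difference between them was not tested. With 1 array left out, the first count lay between 4 and 11 and the second between 317 and 714. The lowest were without WT replicate 3 (4 and 317), and the highest were without WT replicate 1 (11 and 714). The first count was also 4 without IKKβ triple KO replicate 2, and the second 330 without WT replicate 2, 332 without WT replicate 4 and 355 without RIPK3 triple KO replicate 3. The 7 genes were Ubd (4.45 ± 0.23 SE), Cxcl10 (2.66 ± 0.34), Wif1 (2.00 ± 0.21), Traf2 (0.61 ± 0.09) and Ctbp2 (0.61 ± 0.09) above WT, and Casp8 (−0.99 ± 0.11) and the predicted gene Gm10319 (−2.0 ± 0.25, named for this count) below it. Of these, Ubd, Wif1, Traf2 and Gm10319 also differed between the 2 triple KO genotypes. Cxcl10 and Ctbp2, named here after their values were seen, did not pass between them (adjusted p = 0.616 and 0.309).

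**Figure D1:**
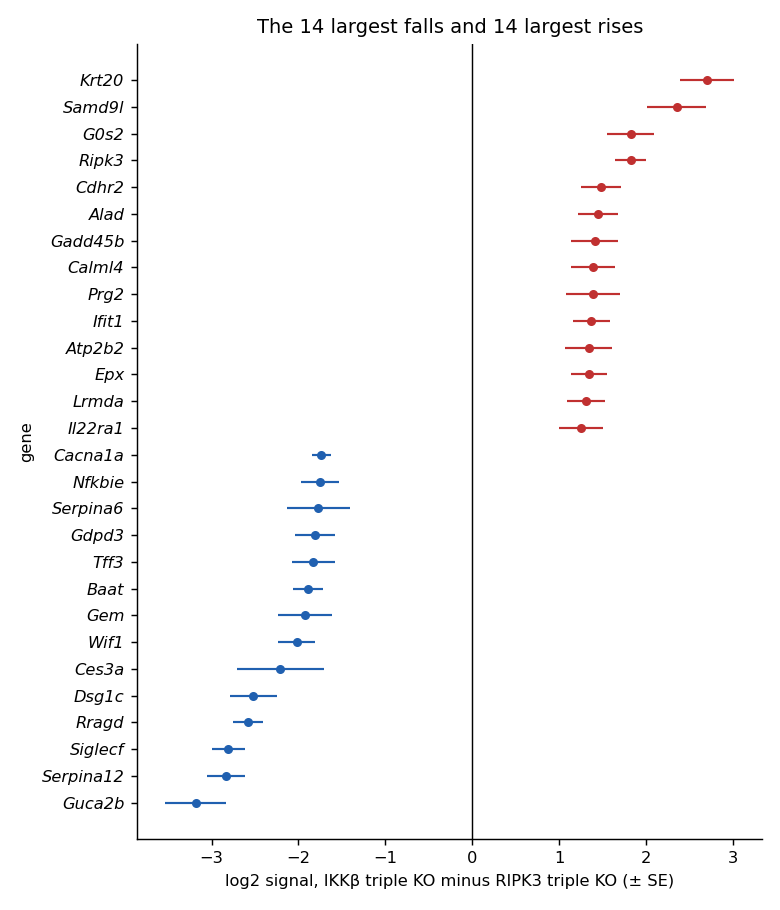
Log2 difference, IKKβ triple KO minus RIPK3 triple KO, with the standard error of the limma model (n = 4 arrays each), for the genes with the 14 largest falls (blue) and 14 largest rises (red) among genes that passed the test with no overlap between groups. Guca2b is at −3.18 and Krt20 at 2.70.

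Ripk3 was lower in the RIPK3 triple KO and Ikbkb in the IKKβ triple KO, as their labels say. Ripk3 signals were 5.80, 6.42, 6.04 and 5.86 in the IKKβ triple KO and 4.23, 4.40, 4.16 and 4.07 in the RIPK3 triple KO. The groups were apart by more than 1 log2 unit, and the difference was 1.82 ± 0.18 SE (3.52-fold, limma adjusted p = 7.49e-05). Ikbkb, which encodes IKKβ, was 7.30, 7.26, 7.12 and 7.07 in the IKKβ triple KO against 7.78, 8.05, 8.06 and 7.87. Its fall was 1.69-fold (−0.75 ± 0.09, adjusted p = 0.000598), in a tissue in which non-parenchymal cells keep the gene. Casp8, deleted in parenchymal cells of both genotypes, did not pass (8.88 ± 0.23 SD against 8.69 ± 0.13 SD, n = 4 each; difference 0.19 ± 0.11 SE, adjusted p = 0.453), and both groups lay below the WT mean of 9.87. Traf2 went against its label. Its signal was 6.87, 6.92, 6.87 and 6.88 in the IKKβ triple KO and 7.18, 7.31, 7.53 and 7.26 in the RIPK3 triple KO, against a WT mean of 6.28, so both genotypes labelled as deleted lay above WT. It fell by 0.43 between the 2 (± 0.09, adjusted p = 0.0292), a call that ended without IKKβ triple KO replicate 2, 3 or 4 or RIPK3 triple KO replicate 2 or 3 (adjusted p up to 0.0942). Which exons the Traf2 probes cover was not analysed here, so this probe set does not check the deletion.

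Genes next to the targeted loci did not change as blocks. Among the 20 measured genes on each side, Adcy4 fell near Ripk3 and Clk1 near Casp8 (1 of 40 each, 2.50%), and none of 40 passed near Ikbkb or Traf2. By chromosome, the share of genes past the threshold ran from 1.11% on chromosome X to 3.18% on chromosome 9, leaving out the 15 genes of chromosome Y. All chromosomes therefore lay within a few percent of the 2.00% over all genes.

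NF-κB pathway genes that passed were lower in the IKKβ triple KO. Of 66 measured genes on 3 lists (canonical targets, subunits with their inhibitors and kinases, and non-canonical genes), 10 fell, among them Ikbkb and Traf2 themselves, and 0 rose, against 1.38% and 0.627% of all genes. The other 56 did not pass, and the median difference of the 66 was −0.08 against −0.008 over all genes. The number that fell was 6 to 9 with 1 of the 8 arrays left out and 7 when only these 8 arrays were fitted. It was 6 without IKKβ triple KO replicate 3 or 4 and without RIPK3 triple KO replicate 2 or 3, and without IKKβ triple KO replicate 1 a single member rose.

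The promoters of 4 of the genes that fell are shown because each holds the string GGGNNTTTC on one of its strands, a short form of the sequence NF-κB dimers are known to bind. Windows of 300 bases, 250 before the annotated gene start and 50 from it on, come from RefSeq on build GRCm38.p6, are read 5′ to 3′ on the gene's strand (+ for all 4), and have the string, or its reverse complement, in capitals.
Ubd, chr17:37193642-37193941: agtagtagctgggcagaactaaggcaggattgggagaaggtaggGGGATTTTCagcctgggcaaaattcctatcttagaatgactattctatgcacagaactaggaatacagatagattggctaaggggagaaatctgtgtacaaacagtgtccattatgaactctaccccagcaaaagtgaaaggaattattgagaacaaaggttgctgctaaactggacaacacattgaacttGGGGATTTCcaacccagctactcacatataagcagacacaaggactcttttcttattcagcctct
Nfkb2, chr19:46305445-46305744: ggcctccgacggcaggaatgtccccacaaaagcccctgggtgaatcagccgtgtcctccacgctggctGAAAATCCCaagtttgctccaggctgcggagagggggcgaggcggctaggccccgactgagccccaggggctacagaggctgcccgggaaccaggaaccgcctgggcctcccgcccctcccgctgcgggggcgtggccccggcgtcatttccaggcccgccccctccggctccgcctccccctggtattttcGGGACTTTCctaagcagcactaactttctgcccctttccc
Ltb, chr17:35194257-35194556: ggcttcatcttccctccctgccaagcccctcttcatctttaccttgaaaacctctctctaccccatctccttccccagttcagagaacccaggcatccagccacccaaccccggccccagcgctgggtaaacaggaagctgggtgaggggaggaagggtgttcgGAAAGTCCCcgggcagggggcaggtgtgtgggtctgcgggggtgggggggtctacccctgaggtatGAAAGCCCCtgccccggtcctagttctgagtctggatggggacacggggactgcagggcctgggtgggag
Ccl20, chr1:83116516-83116815: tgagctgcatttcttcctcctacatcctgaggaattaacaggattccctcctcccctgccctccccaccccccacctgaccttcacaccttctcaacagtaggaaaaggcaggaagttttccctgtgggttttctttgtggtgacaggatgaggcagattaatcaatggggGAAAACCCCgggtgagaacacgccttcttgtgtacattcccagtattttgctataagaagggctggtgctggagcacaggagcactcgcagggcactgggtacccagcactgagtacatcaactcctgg
In Ubd the string begins 206 and 15 bases before the start, in Ltb 86 and 20 bases before it, and in Ccl20 79 bases before it. Nfkb2 holds it once before this start and again from base 11 after it. Of the 10 genes that fell, 9 had a window and 5 of these held the string in at least 1 window (the 4 shown and Traf2). Over 12 windows of these genes it was found in 7, and over all 32851 windows of the RefSeq table in 1432 (4.36%). Windows of Birc2, Birc3, Icam1 and Nfkbie do not hold these letters. Several genes have more than 1 window, and windows of a gene can overlap. The genes came from lists of NF-κB genes, and windows of the list members that did not pass were not counted. These counts therefore do not test why the genes fell. The matches describe the sequence and do not show binding.

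Among inhibitors of NF-κB, Nfkbie, which encodes IκBε and is itself induced by NF-κB, fell most. Its signals were 6.29, 6.56, 5.75 and 5.90 in the IKKβ triple KO and 7.73, 7.61, 8.00 and 8.16 in the RIPK3 triple KO. Every RIPK3 triple KO array lay above every IKKβ triple KO array by more than 1 log2 unit, and the fall was 3.37-fold (−1.75 ± 0.22 SE, adjusted p = 0.00082). Means in WT and TRAF2/Casp8 KO were 5.48 and 7.97, so the IKKβ triple KO lay near WT and the RIPK3 triple KO near TRAF2/Casp8 KO. The same order did not hold for Nfkbia, which encodes IκBα: 10.01, 9.84, 8.73 and 9.29 in the IKKβ triple KO overlapped 8.95, 9.31, 9.46 and 9.68 (0.12 ± 0.28, adjusted p = 0.895; chosen after its values were seen). Tnfaip3, the ubiquitin-editing inhibitor A20, also chosen after its values were seen, was lower in all 4 arrays without passing, its groups apart (−0.63 ± 0.22, adjusted p = 0.174).

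Of the subunits, Nfkb2, the precursor of p52, fell. Its values were 7.38, 7.43, 6.90 and 7.03 against 8.15, 8.27, 7.99 and 8.41, with no overlap (−1.02 ± 0.18, 2.03-fold, adjusted p = 0.0107). The WT mean was 6.17, about 1 log2 unit below the IKKβ triple KO, a difference that did not pass (1.01, adjusted p = 0.0956). Relb, the partner of p52, chosen after its values were seen, was 6.81, 6.79, 5.43 and 5.76 against 7.27, 6.95, 7.02 and 7.45. Its groups did not overlap, yet the IKKβ triple KO arrays spread over more than 1 log2 unit and the difference did not pass (−0.98 ± 0.30, adjusted p = 0.136).

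Both neighbouring genes for cellular inhibitors of apoptosis on chromosome 9 fell. These proteins are ubiquitin ligases that work with TRAF2. Birc3 (cIAP2) was 6.97, 7.32, 6.67 and 6.62 against 7.74, 7.99, 8.20 and 8.51 (−1.22 ± 0.21, 2.32-fold, adjusted p = 0.00998). Birc2 (cIAP1) was 7.16, 7.00, 6.71 and 6.78 against 7.60, 7.80, 7.87 and 7.81 (−0.86 ± 0.12, 1.81-fold, adjusted p = 0.00221). Neither pair of groups overlapped, and both genes kept the call with each of the 8 arrays left out in turn.

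Ubd, the ubiquitin-like modifier FAT10, lay above WT in both genotypes. Its signals were 9.39, 8.54, 7.84 and 8.69 in the IKKβ triple KO and 10.14, 10.38, 10.31 and 9.92 in the RIPK3 triple KO, against a WT mean of 4.17. The groups did not overlap, and Ubd fell 2.97-fold between them (−1.57 ± 0.23, adjusted p = 0.0033) while it remained 21.8-fold above WT in the IKKβ triple KO (adjusted p = 2.17e-07). The call between the triple KO genotypes ended when only the 8 arrays were fitted. Icam1, an adhesion molecule for leukocytes, fell 1.75-fold (−0.81 ± 0.18, adjusted p = 0.0366), and 6 of the 8 single-array omissions ended its call (adjusted p up to 0.114).

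**Figure D2:**
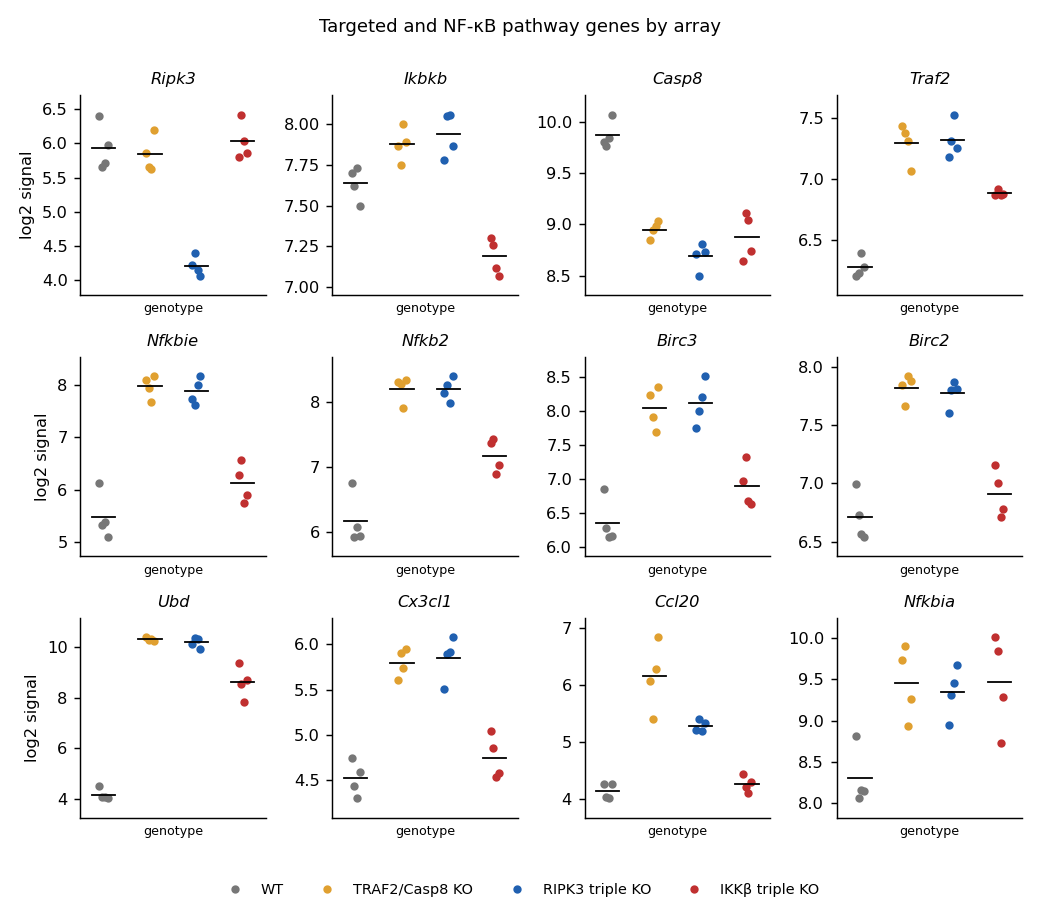
Log2 signal (vertical axes, a scale per gene) of the 4 targeted genes and 8 NF-κB pathway or chemokine genes in each array, by genotype, with a bar at the mean of 4 arrays. Nfkbie, Nfkb2, Birc3, Birc2, Ubd, Cx3cl1 and Ccl20 have no IKKβ triple KO array as high as any RIPK3 triple KO array, and the 2 groups of Nfkbia overlap.

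Chemokines that passed were lower as well: of 31 measured, 4 fell and 0 rose (1.38% and 0.627% of all genes), with a median of −0.02. Cx3cl1 (fractalkine) was 5.04, 4.86, 4.53 and 4.58 against 5.51, 5.90, 5.92 and 6.08 (−1.10 ± 0.14, 2.14-fold, adjusted p = 0.00138). Ccl9 fell 1.52-fold (−0.61 ± 0.09, adjusted p = 0.00287). Ccl20, a ligand of CCR6, was 4.44, 4.21, 4.12 and 4.30 against 5.21, 5.40, 5.20 and 5.34 (−1.02 ± 0.21, adjusted p = 0.0248). All of these groups were apart, and omission of IKKβ triple KO replicate 2, 3 or 4 or RIPK3 triple KO replicate 2 or 3 ended the call of Ccl20 (adjusted p up to 0.0696). Cxcl9 fell 1.54-fold (−0.62 ± 0.13, adjusted p = 0.0263), and 4 omissions ended its call (adjusted p up to 0.0885). Cxcl10, which binds the same receptor as Cxcl9, differed the other way without passing: 10.50, 10.19, 9.0 and 9.28 overlapped 9.16, 9.16, 8.80 and 10.14.

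Of 36 measured TNF family ligands and receptors, 2 fell and 0 rose (1.38% and 0.627% of all genes), with a median of 0.04. Ltb (lymphotoxin β) was 5.82, 6.25, 5.90 and 6.01 against 6.98, 7.13, 6.81 and 7.49 (−1.11 ± 0.25, adjusted p = 0.0406). Although its groups were apart, leaving out any of the 8 arrays ended the call (adjusted p between 0.0687 and 0.106). Tnfsf18, at a low signal of 2.71 against 3.06, fell by 0.35 (± 0.07, adjusted p = 0.0292), which 6 omissions ended (adjusted p up to 0.0822).

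Death-complex genes other than the targeted ones and the inhibitors of apoptosis did not pass. On the list of 26 measured genes of necroptosis and death complexes, Ripk3 rose, Birc2, Birc3 and Traf2 fell and 22 did not pass (median 0.06). Over all genes, 0.627% rose and 1.38% fell. Mlkl, the effector that RIPK3 phosphorylates, chosen after its values were seen, was 7.04, 7.82, 7.35 and 7.17 against 7.32, 7.31, 7.17 and 6.94, overlapping groups (0.16 ± 0.17, adjusted p = 0.731). None of 17 measured BCL-2 family genes passed, and 2 had an unadjusted limma p under 0.05 (Bnip3 −0.42 ± 0.13, adjusted p = 0.137; Bmf −0.59 ± 0.20, adjusted p = 0.178). None of 19 p53 targets passed (4 unadjusted). Cdkn1a (p21) was 8.40, 9.12, 8.07 and 8.44 against 7.42, 6.98, 7.42 and 7.56 with no overlap (1.16 ± 0.33, adjusted p = 0.101), and Trp53inp1 differed by −0.62 ± 0.19 (adjusted p = 0.136).

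The largest falls were in genes of varied function. In Guca2b, the gut peptide hormone uroguanylin, signals were 5.41, 5.58, 4.66 and 4.06 in the IKKβ triple KO and 7.75, 7.86, 8.10 and 8.73 in the RIPK3 triple KO. The gap between the groups exceeded 2 log2 units, for a 9.06-fold fall (−3.18 ± 0.35, adjusted p = 0.000279). Its means were 4.64 in WT and 8.76 in TRAF2/Casp8 KO. Serpina12 (vaspin, an adipokine of the serpin family) was 4.24, 4.12, 4.13 and 5.04 against 7.07, 7.23, 7.08 and 7.47 (−2.83 ± 0.22, 7.11-fold, adjusted p = 5.47e-06). Siglecf, a sialic acid binding receptor of mouse eosinophils and alveolar macrophages, was 5.90, 5.67, 5.84 and 6.01 against 8.12, 8.78, 8.84 and 8.92 (−2.81 ± 0.19, 7.00-fold, adjusted p = 1.61e-06). Rragd, the RagD GTPase that brings mTORC1 to lysosomes, was 6.07, 6.60, 5.95 and 6.0 against 8.54, 9.03, 8.95 and 8.45 (−2.58 ± 0.17, 5.99-fold, adjusted p = 1.61e-06). None of these groups overlapped.

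Other genes among the 14 largest falls were high in TRAF2/Casp8 KO too. Cacna1a, a neuronal calcium channel subunit, was 4.38, 4.23, 4.37 and 4.34 against 5.68, 6.22, 6.13 and 6.26 (−1.74 ± 0.11, adjusted p = 1.61e-06). Its IKKβ triple KO mean of 4.33 lay next to the WT mean of 4.37, and its RIPK3 triple KO mean of 6.07 next to the TRAF2/Casp8 KO mean of 6.01. Dsg1c, a desmoglein of cell junctions, was 3.28 against 5.79 (−2.52 ± 0.27, adjusted p = 0.000191). Gem, a small GTPase, was 5.32 against 7.25 (−1.93 ± 0.31, adjusted p = 0.00682). Tff3 (trefoil factor 3) was 7.30, 6.84, 7.22 and 7.78 against 8.84, 9.10, 8.64 and 9.88 (−1.83 ± 0.25, adjusted p = 0.00218). In all 3 the TRAF2/Casp8 KO means (5.0 for Dsg1c, 6.16 for Gem and 9.30 for Tff3) lay closer to the RIPK3 triple KO than to WT (3.24, 4.83 and 5.93). For Gem, however, the TRAF2/Casp8 KO mean was intermediate and lay closer to the IKKβ triple KO mean (5.32) than to the RIPK3 triple KO mean (7.25). Wif1, a secreted inhibitor of Wnt proteins, was 8.76, 8.53, 8.35 and 8.07 against 10.49, 10.53, 10.60 and 10.16 (−2.02 ± 0.21, 4.05-fold, adjusted p = 0.000148) and lay above the WT mean of 6.42 in both genotypes (adjusted p = 0.00176 and 8.23e-08).

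Among biliary and progenitor genes, 2 of 19 measured fell, Tff3 and Sox9, and 0 rose, against 1.38% and 0.627% of all genes (median −0.16). Sox9, the transcription factor of bile duct cells, was 5.59, 5.96, 5.79 and 5.66 against 6.57, 6.81, 6.61 and 6.65 (−0.91 ± 0.15, adjusted p = 0.00612), with groups apart. All 7 measured markers of biliary cells had a negative difference, against 52.0% of all genes (median −0.47), with Sox9 the single one that passed. The mean level of these markers was 4.59 to 5.37 in the IKKβ triple KO and 5.18 to 5.71 in the RIPK3 triple KO. Without IKKβ triple KO replicate 1 their median was −0.22. The part of bile duct cells in the difference of Sox9 was not tested.

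Several liver metabolic genes were lower, of which 2 carry bile acid conjugation and processing. Of 33 bile acid genes, 2 fell and 0 rose (1.38% and 0.627% of all genes), and 26 had a negative difference, as 52.0% of all genes did (median −0.15). Baat, which joins bile acids to glycine or taurine, was 6.80, 7.57, 6.80 and 7.25 against 8.78, 9.01, 9.19 and 8.99 (−1.89 ± 0.17, 3.70-fold, adjusted p = 3.78e-05). Cyp2c70, the mouse enzyme that makes muricholic acids, was 10.83, 10.92, 10.88 and 10.88 against 11.39, 11.50, 11.64 and 11.54 (−0.64 ± 0.08, 1.56-fold, adjusted p = 0.000755). Groups were apart in both, and Cyp2c70 was the single 1 of 55 measured cytochrome P450 genes that passed. Baat lay high in TRAF2/Casp8 KO as well (8.53, WT 6.22), whereas the TRAF2/Casp8 KO mean of Cyp2c70 was 10.83 and its WT mean 11.08.

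In amino acid metabolism 4 of 31 measured genes fell and 0 rose, against 1.38% and 0.627% of all genes, and 22 had a negative difference, against 52.0% (median −0.27). Cth (cystathionine γ-lyase, which makes cysteine) was 9.95, 9.85, 10.08 and 10.19 against 10.54, 11.16, 11.46 and 11.16 (−1.07 ± 0.18, 2.09-fold, adjusted p = 0.00889). Prodh (proline dehydrogenase) was 5.21, 5.28, 4.98 and 5.44 against 6.07, 6.24, 7.0 and 6.03 (−1.11 ± 0.19, adjusted p = 0.00865). Gnmt, which uses S-adenosylmethionine to methylate glycine, fell by 0.94 (± 0.18, adjusted p = 0.0218), and Hgd, of tyrosine breakdown, fell by 0.51 (± 0.11, adjusted p = 0.0314). Of these, Gnmt lost its call with 3 single-array omissions (adjusted p up to 0.0769) and Hgd with 5 (adjusted p up to 0.105), and Prodh did not pass when only the 8 arrays were fitted (adjusted p = 0.0683). In all 4 genes the RIPK3 triple KO had the highest mean of the 4 genotypes: Cth was 10.14 in WT, 10.07 in TRAF2/Casp8 KO and 11.08 in the RIPK3 triple KO.

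Carboxylesterases, which cleave esters of lipids and drugs, changed in both directions: Ces3a and Ces3b fell and Ces1f rose, of 16 measured (median 0.05). Over all genes, 1.38% fell and 0.627% rose. The adjacent genes Ces3a and Ces3b were 9.93 against 12.14 and 2.88 against 4.28, with adjusted p-values of 0.0388 and 9.46e-05. Ces3a was 10.47, 8.50, 10.28 and 10.46 in the IKKβ triple KO against 11.93, 12.33, 12.39 and 11.89 (−2.21 ± 0.50), and its call ended with 7 of the 8 omissions (adjusted p up to 0.107). Without IKKβ triple KO replicate 2, the low array, the difference was −1.73. Ces1f was 5.55, 5.59, 5.24 and 5.07 against 4.68, 4.15, 4.57 and 4.06 (1.00 ± 0.23, adjusted p = 0.0393; 7 omissions ended the call, adjusted p up to 0.115). Paralogous carboxylesterases are similar in sequence, and cross-hybridisation between them was not tested.

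Of 24 measured serpins, 3 fell and 0 rose, against 1.38% and 0.627% of all genes (median −0.05). Beside Serpina12, the chromosome 12 genes Serpina6 (corticosteroid-binding globulin) and Serpina10 (protein Z-dependent protease inhibitor) passed. Serpina6 was 10.31, 9.44, 9.88 and 9.15 against 11.50, 11.61, 12.13 and 10.63 (−1.77 ± 0.36, adjusted p = 0.026), and 6 omissions ended its call (adjusted p up to 0.0901). Serpina10 was 10.47, 10.60, 10.56 and 10.59 against 11.02, 11.29, 11.18 and 11.01 (−0.57 ± 0.10, adjusted p = 0.0119). All 3 had groups apart, but the 3 differed in the reference levels: Serpina12 had means of 3.40 in WT and 6.52 in TRAF2/Casp8 KO, while Serpina6 was 10.19 and 9.71.

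Some falls were of genes high in the RIPK3 triple KO alone by their means. Dio1, the deiodinase that activates thyroid hormone, was 7.48, 7.96, 7.74 and 7.81 against 9.47, 9.57, 9.84 and 9.07 (−1.74 ± 0.34, 3.34-fold, adjusted p = 0.0211), with means of 7.97 in WT and 6.20 in TRAF2/Casp8 KO. Its call ended without IKKβ triple KO replicate 3 or 4 or RIPK3 triple KO replicate 2 or 3 (adjusted p up to 0.074), and it was the single gene of 15 of thyroid hormone action that passed. Gdpd3, a lysophospholipase, was 4.48, 4.12, 4.05 and 3.91 against 5.60, 5.42, 6.08 and 6.71 (−1.81 ± 0.23, 3.51-fold, adjusted p = 0.000981), with means of 4.32 and 4.39 in the reference genotypes. Slc1a2, a glutamate transporter known in liver from pericentral hepatocytes, was 6.44, 6.21, 6.01 and 6.18 against 7.38, 7.47, 7.87 and 7.05 (−1.23 ± 0.21, adjusted p = 0.00951), with reference means of 6.12 and 6.43. With Wif1 it made the 2 of 23 Wnt target and zonation genes that fell, and 0 rose (median −0.04). Over all genes, 1.38% fell and 0.627% rose.

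The remaining liver lists held few changes, to be read beside the 1.38% of all genes that fell and the 0.627% that rose. Of 31 hepatocyte secreted and identity genes, Gnmt and the nuclear receptor Nr5a2 fell (−0.49 ± 0.11, adjusted p = 0.0347). Of 49 acute phase, complement and coagulation genes, F7 (coagulation factor VII, −0.48 ± 0.10, adjusted p = 0.0247) and Crp (−0.45 ± 0.09, adjusted p = 0.0286) fell. Of 35 phase II enzymes, Mgst3 rose (0.80 ± 0.14, adjusted p = 0.0114) and Gstk1 fell (−1.11 ± 0.14, adjusted p = 0.000794). The prostaglandin transporter Slco2a1 fell, 1 of 21 transporters (−0.64 ± 0.14, adjusted p = 0.0308). Beside Gnmt, single-array omissions ended the calls of Nr5a2, F7, Crp and Slco2a1 (adjusted p up to 0.107, 0.0881, 0.0874 and 0.094). None of 35 fatty acid oxidation genes, 29 genes of growth hormone action, 27 of glycolysis and gluconeogenesis, 17 NRF2 targets, 17 stress response genes or 19 clock genes passed; with unadjusted limma p under 0.05 there were 10, 9, 4, 1, 3 and 0. The members closest to the threshold were Fabp1 (0.38 ± 0.10, adjusted p = 0.0632), Ppargc1a (−0.74 ± 0.19, 0.0673), Socs2 (−0.72 ± 0.18, 0.0609), Stat5b (−0.43 ± 0.13, 0.114), Xbp1 (0.25 ± 0.09, 0.194), Atf3 (1.05 ± 0.34, 0.147), Ldha (0.23 ± 0.08, 0.196), Pfkl (−0.28 ± 0.10, 0.201), Ephx1 (0.32 ± 0.12, 0.224), Ces1g (0.75 ± 0.39, 0.398), Per3 (−0.39 ± 0.20, 0.376) and Nfil3 (0.29 ± 0.15, 0.401), with limma adjusted p in parentheses. Sterol and fatty acid synthesis genes mostly had positive differences, 26 of 32 (48.0% of all genes did), with a median of 0.36. Only the sterol regulator Srebf2 of them passed (0.38 ± 0.09, adjusted p = 0.0456), which 6 of the 8 omissions ended (adjusted p up to 0.132). It did not pass with quantile normalisation (adjusted p = 0.0733), median centring (0.0883), a replicate block (0.0747) or the 8 arrays alone (0.163), nor without 6 of the 8 reference arrays.

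The largest rise was in Krt20, a keratin of intestinal and other simple epithelia. Its signals were 7.06, 7.97, 8.27 and 7.78 in the IKKβ triple KO against 5.04, 5.38, 5.22 and 4.63 in the RIPK3 triple KO, groups more than 1 log2 unit apart (2.70 ± 0.31, 6.51-fold, adjusted p = 0.000383). WT and TRAF2/Casp8 KO means were 7.62 and 6.92, so the RIPK3 triple KO was the low genotype. It was the single 1 of 16 measured keratins that passed. G0s2, an inhibitor of the triglyceride lipase ATGL, was 9.92, 9.91, 9.38 and 9.99 against 8.66, 7.89, 7.33 and 8.02 (1.82 ± 0.27, 3.54-fold, adjusted p = 0.0038). Alad, the second enzyme of heme synthesis, was 10.29, 10.62, 10.71 and 10.74 against 9.10, 9.14, 9.42 and 8.96 (1.44 ± 0.23, 2.71-fold, adjusted p = 0.00586). In both, the reference means (9.42 and 9.18, 10.32 and 10.07) lay near the IKKβ triple KO.

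**Figure D3:**
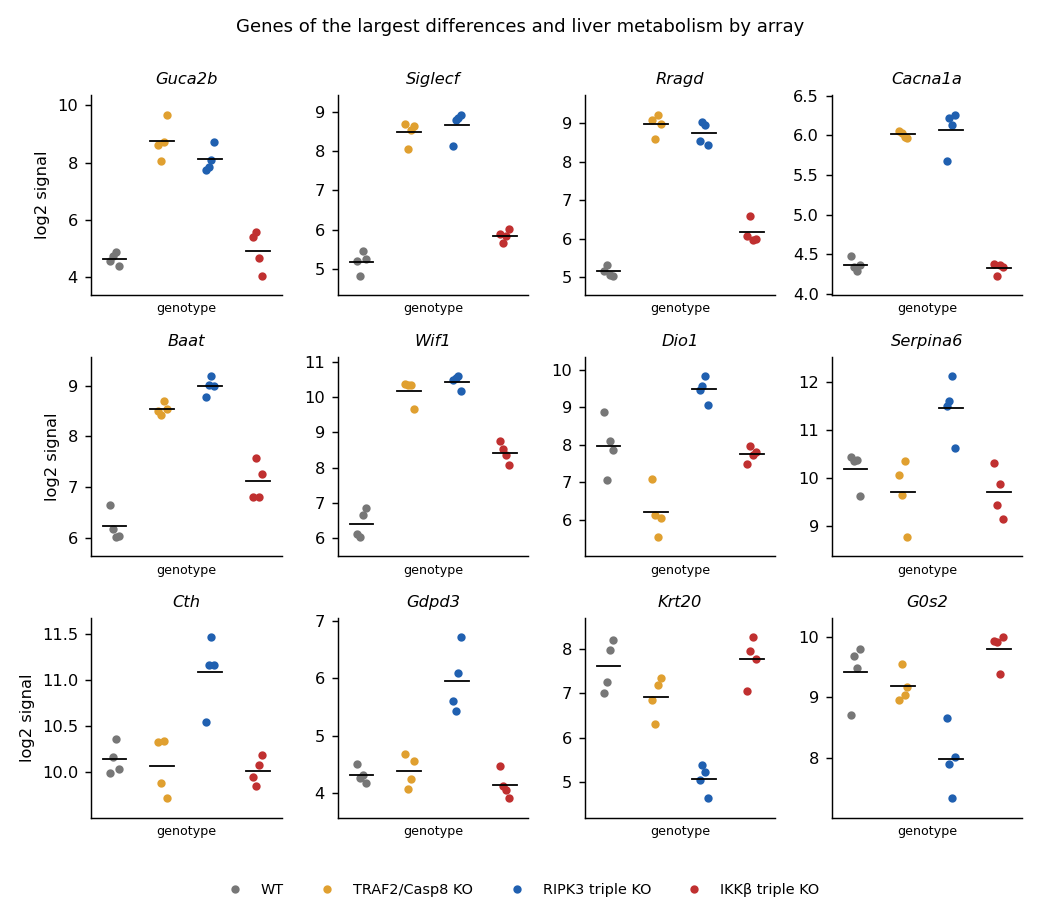
Log2 signal (vertical axes, a scale per gene) in each array of 12 genes with large differences or roles in liver metabolism, by genotype, with a bar at the mean of 4 arrays. Guca2b, Siglecf, Rragd, Cacna1a, Baat and Wif1 are high in TRAF2/Casp8 KO and RIPK3 triple KO, Dio1, Serpina6, Cth and Gdpd3 have their highest mean in the RIPK3 triple KO, and Krt20 and G0s2 their lowest mean there.

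Cdhr2, a protocadherin of microvilli, was 5.71, 6.56, 6.76 and 6.40 against 4.55, 5.04, 4.80 and 5.10 (1.48 ± 0.23, adjusted p = 0.00472). Calml4, a calmodulin-like protein, was 7.68, 8.24, 7.53 and 7.36 against 6.27, 6.32, 6.16 and 6.49 (1.39 ± 0.25, adjusted p = 0.0124). Lrmda, a gene of melanocyte differentiation, was 6.49 against 5.18 (1.31 ± 0.22, adjusted p = 0.00915). Groups were apart in all 3, and all 3 kept the call with each of the 8 arrays left out. Atp2b2, a plasma membrane calcium pump, was 6.34, 7.23, 7.14 and 7.29 against 6.07, 5.65, 5.66 and 5.24 (1.34 ± 0.27, adjusted p = 0.0224). Il22ra1, the receptor chain for interleukin-22 on epithelial cells, was 7.04, 7.28, 6.79 and 6.87 against 5.49, 5.60, 5.30 and 6.60 (1.25 ± 0.25, adjusted p = 0.0217). Single omissions ended the calls of Atp2b2 (6 of 8, adjusted p up to 0.0756) and Il22ra1 (5 of 8, up to 0.0768), and the TRAF2/Casp8 KO mean of Il22ra1, 5.21, lay below both genotypes. Another Il22ra1 probe set did not pass (0.73, limma adjusted p = 0.0845).

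Immediate early and growth-control genes rose in small numbers, to be read beside the 0.627% of all genes that rose and the 1.38% that fell. On the list of immediate early genes and AP-1 subunits, 2 of 25 rose and 0 fell (median 0.32). Gadd45b, a stress-induced gene, was 7.02, 7.55, 6.53 and 6.83 against 5.43, 5.34, 5.79 and 5.75 (1.41 ± 0.27, 2.65-fold, adjusted p = 0.0181). Zfp36 (tristetraprolin, which destabilises cytokine mRNAs) was 7.34, 7.54, 7.56 and 7.89 against 6.69, 6.45, 6.84 and 6.88 (0.87 ± 0.14, adjusted p = 0.00679). Groups were apart in both; the call of Gadd45b ended without IKKβ triple KO replicate 2 or RIPK3 triple KO replicate 2 (adjusted p up to 0.0577). Of 18 Hippo and YAP targets, Ajuba, a scaffold that restrains Hippo kinases, rose (5.97, 6.75, 6.64 and 6.62 against 5.34, 5.46, 5.36 and 5.38; 1.11 ± 0.20, adjusted p = 0.0119), as did the kinase Nuak2 (0.48 ± 0.10, adjusted p = 0.0292; 6 omissions ended the call, adjusted p up to 0.0942). Of 25 metallothionein, zinc and iron genes, the zinc exporter Slc30a1 rose (0.63 ± 0.12, adjusted p = 0.0213), as did Id1, a target of BMP signals (0.95 ± 0.20, adjusted p = 0.0276). Their calls ended with 3 and 4 omissions (adjusted p up to 0.0702 and 0.0933). Among 21 fetal liver and liver cancer genes, Dlk1 rose (0.92 ± 0.19, adjusted p = 0.0308; 6 omissions ended the call, adjusted p up to 0.1) and Gpc3 and Tff3 fell (Gpc3 −0.56 ± 0.09, adjusted p = 0.00817, and 0.0761 when only the 8 arrays were fitted).

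Interferon-stimulated genes were mostly higher in the IKKβ triple KO. Of 33 measured, 6 rose and 1 fell (Cxcl9), against 0.627% and 1.38% of all genes. A positive difference was found in 28, against 48.0% of all genes, and the median was 0.45. Samd9l, an antiviral and growth-restricting gene, was 6.59, 6.72, 7.36 and 6.91 against 5.87, 4.23, 4.37 and 3.70 (2.35 ± 0.34, 5.11-fold, adjusted p = 0.00287). Its WT and TRAF2/Casp8 KO means, 6.72 and 6.91, lay with the IKKβ triple KO, so this gene was low in the RIPK3 triple KO. Ifit1, which binds viral RNA caps, was 7.31, 6.92, 7.75 and 7.79 against 6.23, 6.07, 6.27 and 5.72 (1.37 ± 0.21, 2.58-fold, adjusted p = 0.00404). Here both reference means (6.48 and 6.26) lay nearer the RIPK3 triple KO. Neither gene had overlapping groups, and both kept the call with each of the 8 arrays left out.

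The other 4 that rose were closer to the threshold. Oas3, a sensor of double-stranded RNA, was 4.35, 5.16, 5.66 and 5.06 against 3.82, 3.82, 3.77 and 4.04 (1.19 ± 0.24, adjusted p = 0.0251). Cmpk2, a mitochondrial nucleotide kinase, was 6.15, 6.18, 6.51 and 6.64 against 5.80, 5.84, 5.86 and 5.68 (0.57 ± 0.12, adjusted p = 0.0281). Oasl1 (0.80 ± 0.17, adjusted p = 0.0292) and Irf7, the master regulator of type I interferon genes (7.71, 7.89, 8.40 and 8.28 against 7.22, 7.27, 7.23 and 6.84; 0.93 ± 0.21, adjusted p = 0.0388), were named after their values were seen. Groups were apart in all 4, and between 5 and 7 of the 8 single-array omissions ended each call (adjusted p up to 0.12). When only the 8 arrays were fitted, Oas3, Cmpk2, Oasl1 and Irf7 did not pass (limma adjusted p = 0.0747, 0.105, 0.0626 and 0.0615). Over the list the number that rose was 2 to 9 with 1 of the 8 arrays left out, and 2 to 11 under the other settings. It was 2 without IKKβ triple KO replicate 3 or 4 or RIPK3 triple KO replicate 2 or 3, and 3 without RIPK3 triple KO replicate 1. The mean level of the 33 genes was 7.18, 7.23, 7.59 and 7.44 in the IKKβ triple KO and 6.88, 6.86, 6.94 and 6.68 in the RIPK3 triple KO, with no overlap, while the WT arrays spread from 6.69 to 7.27 across both. Such separation was not particular to this list. Means were also apart for immediate early genes (6.02 to 6.26 against 5.54 to 5.96) and serpins (8.23 to 8.32 against 8.48 to 8.55). They were apart too for bile acid genes, keratins, canonical NF-κB targets and several further lists. Markers of blood-forming cells, which also express these genes, mostly had positive differences as well, as given below, and their part was not tested. IKKβ triple KO replicates 3 and 4, the highest of their genotype for myeloid and erythroid markers, were also highest for interferon-stimulated genes (7.59 and 7.44). RIPK3 triple KO replicate 4, highest of its genotype for myeloid and erythroid markers, was lowest for interferon-stimulated genes (6.68).

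**Figure D4:**
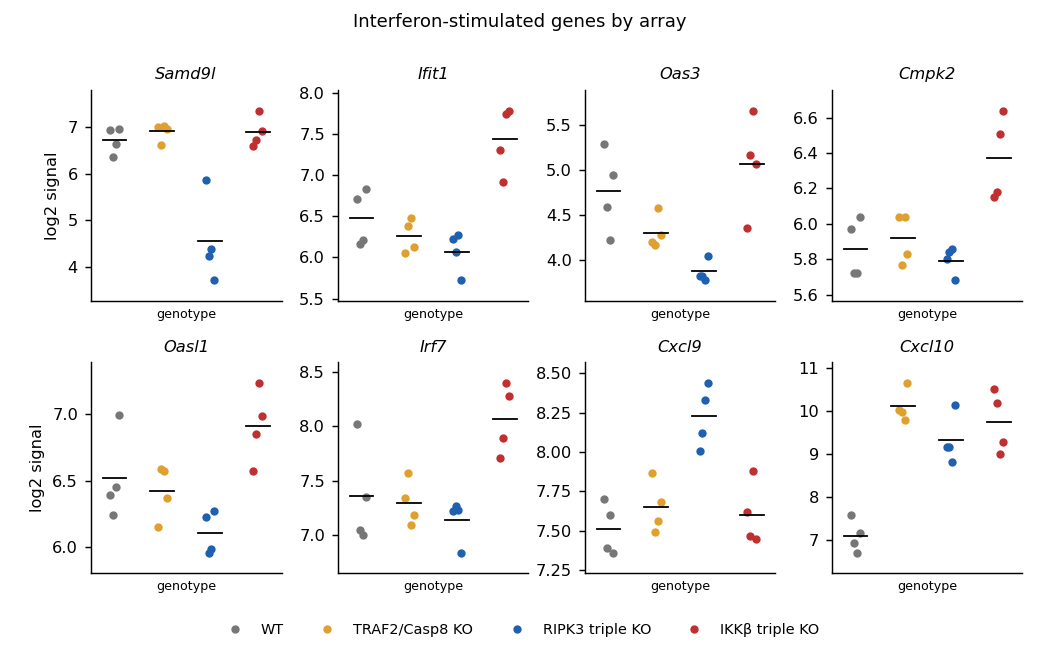
Log2 signal (vertical axes, a scale per gene) of 8 interferon-stimulated genes in each array, by genotype, with a bar at the mean of 4 arrays. In the first 6 every IKKβ triple KO array lies above every RIPK3 triple KO array, in Cxcl9 below, and in Cxcl10 the groups overlap.

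Cell cycle genes all had positive differences, 31 of 31 measured (48.0% of all genes), with a median of 0.61, and 5 rose, against 0.627% of all genes (E2f1, Ccnd1, Tk1, Mcm7 and E2f8). E2f1, an activator of S-phase genes, was 6.0, 6.44, 6.30 and 6.22 against 5.30, 5.45, 5.55 and 5.65 (0.75 ± 0.12, 1.69-fold, adjusted p = 0.00535) and kept its call with each of the 8 arrays left out. Ccnd1 (cyclin D1) was 9.14, 9.49, 9.65 and 9.37 against 8.91, 8.95, 8.58 and 8.66 (0.64 ± 0.12, adjusted p = 0.0168; 3 omissions ended the call, adjusted p up to 0.0648). Tk1 rose by 0.59 ± 0.12 (adjusted p = 0.0241), Mcm7 by 0.59 ± 0.13 (adjusted p = 0.0388) and E2f8 by 0.96 ± 0.22 (adjusted p = 0.0414), each with a call that 6 omissions ended (adjusted p up to 0.0822, 0.121 and 0.135). Another Tk1 probe set did not pass (0.37, limma adjusted p = 0.188). When only the 8 arrays were fitted, Ccnd1, Tk1, Mcm7 and E2f8 did not pass (limma adjusted p = 0.091, 0.0862, 0.129 and 0.122). Mki67, named after its values were seen, was 9.08, 9.76, 10.17 and 10.16 against 8.90, 9.19, 9.28 and 9.37 and did not pass (0.61 ± 0.24, adjusted p = 0.243).

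The number of cell cycle genes that passed moved with most of the 8 arrays. The mean level of the list was 7.53 in IKKβ triple KO replicate 1 and 8.29, 8.35 and 8.35 in the other three, against 7.38, 7.57, 7.57 and 7.51 in the RIPK3 triple KO. Without IKKβ triple KO replicate 1, 26 of 31 passed and the median was 0.83, and the number was 1 without IKKβ triple KO replicate 2 or 3 or RIPK3 triple KO replicate 3, and 2 without IKKβ triple KO replicate 4 or RIPK3 triple KO replicate 1 or 2. It was 3 without WT replicate 3. The WT arrays lay between 7.62 and 8.05.

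Markers of blood-forming cells, like the cell cycle list, had mostly positive differences, and the lists ranked some arrays alike and others not. Liver at this age still holds haematopoietic cells, which divide. All 18 measured neutrophil and myeloid precursor markers had a positive difference, against 48.0% of all genes (median 1.07). Of them 0 passed limma's test, 12 having an unadjusted p under 0.05. Their mean level was 7.52, 7.71, 8.18 and 8.45 in the IKKβ triple KO and 6.17, 6.71, 6.96 and 7.80 in the RIPK3 triple KO. Mpo (myeloperoxidase) differed by 2.05 ± 0.57 (adjusted p = 0.0986) and Prtn3 (proteinase 3) by 1.74 ± 0.53 (adjusted p = 0.127). Of 17 erythroid markers 16 had a positive difference, against 48.0% of all genes (median 1.02), and 0 passed, 9 with an unadjusted limma p under 0.05. Mean levels of the erythroid markers were 6.75, 6.24, 7.63 and 7.90 against 5.54, 5.90, 5.89 and 7.43. The groups of both lists overlapped through RIPK3 triple KO replicate 4, and without that array the medians were 1.35 and 1.52. The erythroid genes named were Epor (0.71 ± 0.24, adjusted p = 0.178) and Tfrc, the transferrin receptor, which had the opposite sign (−0.52 ± 0.20, adjusted p = 0.238). The 10 megakaryocyte markers had a median of 0.45, with Pf4 at 0.83 ± 0.37 (adjusted p = 0.307) and Itga2b at 0.52 ± 0.24 (adjusted p = 0.322). IKKβ triple KO replicate 1 was the lowest of its genotype for the cell cycle list (7.53) and the myeloid list (7.52). Its erythroid mean, 6.75, lay within the other arrays of that genotype. RIPK3 triple KO replicate 1 was the lowest of its genotype for the cell cycle (7.38), myeloid (6.17) and erythroid (5.54) lists. IKKβ triple KO replicate 2 had the lowest erythroid mean of its genotype (6.24) and a cell cycle mean of 8.29. RIPK3 triple KO replicate 4, highest of its genotype for the erythroid and myeloid lists, had a cell cycle mean of 7.51, beside 7.38, 7.57 and 7.57. The part of these cells in the cell cycle and interferon-stimulated differences was not tested.

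**Figure D5:**
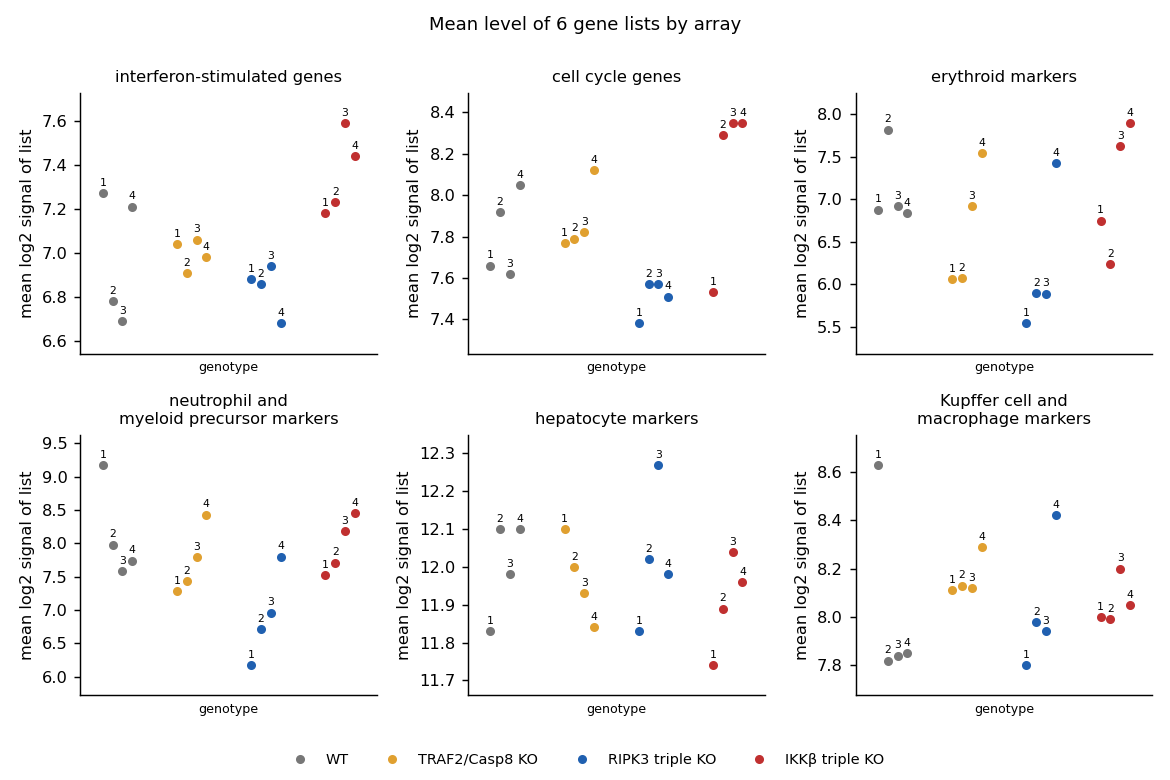
Mean log2 signal (vertical axes, a scale per list) over the measured members of 6 lists in each array, by genotype; the number at each point is the replicate. The 2 triple KO groups are apart for interferon-stimulated genes and overlap for the other 5 lists. Some lists not drawn here were also apart.

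Eosinophil genes gave differences of both signs. Of 14 markers of eosinophils, basophils and mast cells, Epx (eosinophil peroxidase) and Prg2 (major basic protein) rose and Siglecf fell. Over all genes, 0.627% rose and 1.38% fell. Epx was 4.68, 3.71, 4.43 and 4.55 against 3.29, 2.82, 3.02 and 2.87 (1.34 ± 0.21, adjusted p = 0.00519). Prg2 was 6.48, 5.55, 6.12 and 6.64 against 4.28, 4.81, 4.96 and 5.21 (1.39 ± 0.31, adjusted p = 0.0388), and 6 omissions ended its call (adjusted p up to 0.117). Groups were apart in all 3 genes. The other 11 did not pass, among them the granule protein gene Prg3 (−0.05 ± 0.12, adjusted p = 0.889) and the eosinophil chemokine receptor Ccr3 (−0.04 ± 0.15, adjusted p = 0.942), named after their values were seen. In TRAF2/Casp8 KO the mean of Siglecf was 8.48 and that of Epx 3.53.

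Markers of the other cell types gave few calls. Hepatocyte markers had overlapping mean levels of 11.74 to 12.04 in the IKKβ triple KO and 11.83 to 12.27 in the RIPK3 triple KO, high as in the reference genotypes, and none of 9 passed (1 unadjusted; Fga 0.31 ± 0.10, adjusted p = 0.136; Tat −0.71 ± 0.34, adjusted p = 0.34). None of 17 endothelial markers passed (2 unadjusted; Stab2 −0.19 ± 0.08, adjusted p = 0.253; Ptprb −0.19 ± 0.09, adjusted p = 0.326) and none of 23 Kupffer cell and macrophage markers (2 unadjusted; Cd163 −0.71 ± 0.24, adjusted p = 0.169; Cx3cr1 0.46 ± 0.19, adjusted p = 0.262). Of 24 stellate cell and fibroblast markers, 1 fell, Rgs5, a regulator of G proteins in pericytes: 6.98, 7.47, 7.31 and 6.50 against 8.28, 8.10, 8.15 and 8.19 (−1.12 ± 0.22, adjusted p = 0.0236). Its call ended with 4 omissions (adjusted p up to 0.0712). On this list 9 had an unadjusted limma p under 0.05, all with a negative difference. Loxl1, Col6a3 and Lrat, named after their values were seen, had groups apart just outside the threshold (limma adjusted p = 0.052, 0.0619 and 0.0738). Some members, such as Timp1 (0.87 ± 0.48, adjusted p = 0.421), had a positive difference. None of 10 MHC class II genes (Cd74 −0.54 ± 0.16, adjusted p = 0.12; H2-DMa 0.42 ± 0.14, 0.148), 20 T and NK cell markers (Gzma 0.47 ± 0.12, 0.0597; Cd4 0.38 ± 0.15, 0.225), 15 B cell markers (Vpreb3 0.39 ± 0.23, 0.458; Rag2 −0.35 ± 0.19, 0.403), 10 dendritic cell markers (Xcr1 0.58 ± 0.16, 0.0828; Ccr7 0.43 ± 0.13, 0.123) or 7 mesothelial markers (Upk3b −0.43 ± 0.16, 0.211; Msln −0.31 ± 0.12, 0.226) passed, with limma adjusted p after each difference; at an unadjusted p under 0.05 there were 2, 5, 0, 3 and 2. Of 12 pancreas and gut markers the elastase gene Cela1 rose (0.42 ± 0.09, adjusted p = 0.0346; 7 omissions ended the call, adjusted p up to 0.0955). None of 13 adipocyte and muscle markers passed (Cidec 1.33 ± 0.47, adjusted p = 0.188; Myh3 −0.16 ± 0.11, adjusted p = 0.544).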

How the data were processed

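Whole-liver RNA from 16 mice, 1 per array, was hybridised to one-colour Affymetrix arrays. The authors deposited log2 signals made with RMA, per the submitters' processing notes; its version and the genome build are not stated in what was used here. Values were neither filtered nor normalised again. The number of arrays limits the precision.

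Gene names came from the platform annotation, updated by Entrez ID to RefSeq symbols (21185 of 21218 probe sets with 1 symbol matched). Probe sets with several symbols (1881) or none (12457) were tested and not named. The brightest probe set stood for each of 18820 genes. Genotype means were compared in limma 3.58.1 (R 4.3.3; lmFit, eBayes without trend, two-sided), checked on simulated data. Figures used matplotlib 3.10.9.

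The genotypes compared, the 50 gene lists and the naming rule were chosen with earlier results of these data known. The rule named each targeted gene, the 14 rises and 14 falls of greatest size past the threshold with groups apart (predicted, clone-named, small RNA, antigen receptor, olfactory and vomeronasal genes left out), and per list up to 5 members past the threshold by adjusted p, or 2 as values where none passed. Genes added after their values were seen are so described. Alternatives were a variance trend with robust settings, the 8 arrays alone, a filter on dim probe sets, quantile normalisation, median centring, testing a single probe set for each gene, weighting arrays, blocking by replicate number or plate row, requiring a 2-fold change, and omitting each array.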

Additional observations from a re-analysis of the deposited data

Results flagged for a closer look

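An array stood apart from the other 3 of its genotype in 23 of 376 groups of 4 examined (named genes and list means in the 2 triple KO genotypes), by a gap to the nearest array above Dixon's critical share of the range; chance gives about 1 in 20. In the IKKβ triple KO, replicate 1 was apart for the mean of cell cycle genes (7.53 against 8.29 to 8.35), for the mean of growth hormone, IGF and sex-dependent genes (7.35 against 7.09 to 7.11), for Ajuba (5.97 against 6.62 to 6.75), Atp2b2 (6.34 against 7.14 to 7.29), Ptpn3 (8.19 against 7.81 to 7.85) and Ptprb (9.33 against 9.10 to 9.13). Replicate 2 of that genotype was apart for Ces3a (8.50 against 10.28 to 10.47), Nr5a2 (8.70 against 8.90 to 8.91), Epor (5.31 against 5.94 to 6.03) and Psat1 (8.55 against 7.68 to 7.81). Replicate 3 was apart for Gstk1 (9.37 against 9.07 to 9.11), Trp53inp1 (8.18 against 8.44 to 8.47), Ccr7 (5.83 against 5.48 to 5.53) and G0s2 (9.38 against 9.91 to 9.99), and replicate 4 for Serpina12 (5.04 against 4.12 to 4.24).

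In the RIPK3 triple KO, replicate 4 was apart for the mean of megakaryocyte and platelet markers (7.51 against 6.06 to 6.26), Pf4 (7.84 against 6.03 to 6.14), Epor (5.71 against 4.88 to 4.92) and Irf7 (6.84 against 7.22 to 7.27). Replicate 1 was apart for the mean of hepatocyte secreted and identity genes (10.96, the others at 11.10) and for Tk1 (7.95 against 8.24 to 8.29), replicate 2 for Nuak2 (6.68 against 6.4 to 6.43), and replicate 3 for the mean of glycolysis and gluconeogenesis genes (9.11 against 8.95 to 8.97).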

How the results depend on the processing

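Of 567 probe sets past the threshold (179 higher, 388 lower), single-array omissions left 197 to 938 (65 to 471 higher, 132 to 467 lower). Fitting only the 8 arrays left 232 (86 and 146), array weights gave 875 (334 higher), and a minimum fold of 2 left 128 (51 and 77); the cause was not tested, beyond fewer arrays in the first and the stricter rule in the last. A replicate block gave 547 (201 and 346). Same-numbered arrays deviated together with correlations of 0.0551 to 0.144, so the numbers were not taken as pairs, and 3 of 4 arrays of each genotype correlated best with their own number. Quantile normalisation again (641) and median centring (616) shifted the median of all genes to −0.013 and −0.038. Of 84 named genes past the threshold, 46 kept the call with each of the 8 arrays left out and 47 under the other settings run for them, the minimum fold aside (9, or 8 for Ces3b, which the filter on dim probe sets removed); none of the 84 changed sign under these. Nfkbia, which did not pass, changed sign with array weights (−0.07), without IKKβ triple KO replicate 1 (−0.06) or 2 (−0.01) and without RIPK3 triple KO replicate 1 (−0.01); its range over single omissions was −0.06 to 0.37.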

Other observations

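Genes in this section were chosen after their values were seen, and each difference is IKKβ triple KO minus RIPK3 triple KO with its SE and limma adjusted p. The 3 enzymes of serine synthesis from glycolytic intermediates all rose. Phgdh was 6.30, 6.81, 6.07 and 6.33 against 4.89, 5.10, 5.14 and 5.43 (1.24 ± 0.21, adjusted p = 0.00852). Another Phgdh probe set passed too (1.00, adjusted p = 0.0431), and a further, dimmer one did not (0.05, adjusted p = 0.898). Psat1 was 7.68, 8.55, 7.70 and 7.81 against 6.90, 6.76, 6.57 and 6.56 (1.23 ± 0.18, adjusted p = 0.00394), and Psph rose by 0.70 ± 0.14 (adjusted p = 0.022; 4 single-array omissions ended the call, up to 0.0768). Groups were apart in all 3, and the WT means (5.97, 7.36 and 6.13) lay between the 2 genotypes. Gadd45a rose beside Gadd45b (1.06 ± 0.21, adjusted p = 0.022; 4 omissions ended the call, up to 0.0745). Heme synthesis genes other than Alad did not pass: Alas1, the rate-limiting enzyme in liver, differed by 0.70 ± 0.19 (adjusted p = 0.0863) and its erythroid form Alas2 by 0.40 ± 0.24 (adjusted p = 0.47), and the erythroid band 3 gene Slc4a1 by 1.29 ± 0.61 (adjusted p = 0.333).

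The 2 protocadherins of the intestinal brush border, known as partners, moved in opposite directions. Cdhr2 rose, and Cdhr5 was 7.15, 7.29, 6.92 and 7.01 against 8.06, 8.24, 8.62 and 8.18 (−1.18 ± 0.11, adjusted p = 6.5e-05), with groups apart in both. Metallothioneins spread widely and did not pass: Mt1 was 12.22, 11.42, 11.64 and 11.40 against 10.53, 9.76, 11.48 and 10.39 (1.13 ± 0.31, adjusted p = 0.0935), and Mt2 differed by 1.62 ± 0.47 (adjusted p = 0.106). Hmgcs1, of sterol synthesis, lay just outside the threshold (0.52 ± 0.12, adjusted p = 0.051). Rgs4, the neighbour of Rgs5 on chromosome 1, fell as well (−1.35 ± 0.29, adjusted p = 0.036), with overlapping groups and a call that 5 omissions ended (up to 0.106).

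The tyrosine phosphatase gene Ptpn3 has 12 probe sets, all lower in the IKKβ triple KO, by −0.83 to −0.37, and 9 of them passed. Probe sets of 1 gene share RNA and are not replicates.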
